A study of Mus musculus with 2 samples.

Results

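Binding of the coactivator EP300 was examined at 10 genes of fatty acid uptake and oxidation in newborn mouse heart: Cd36, Lpl, Fabp3, Acsl1, Cpt1a, Cpt1b, Cpt2, Acadm, Acadvl and Hadha. The genes were chosen by name, with earlier results of these data known. A ChIP-seq peak was counted for a gene when its summit lay within 100 kb of a transcription start site (TSS) of that gene and no TSS of another protein-coding gene was nearer. The rule rests on distance, and no contact between a peak and its gene was measured. Of the 17372 peaks in the authors' optimal list, 17339 lay on the main chromosomes and 36 of these belonged to the 10 genes. At least 1 peak was found at 8 of the 10 genes, and at 31.9% of all 21829 protein-coding genes.

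Chromatin came from whole heart of mice of the strain labelled B6NCrl at postnatal day 0 and was precipitated with an antibody against EP300. There was 1 group of 2 libraries, with no other genotype, age, tissue or treatment, so no groups could be compared. Although labelled as biological replicates, the libraries carry 1 biosample and 1 donor identifier in the labels. Differences between them therefore measure the spread between 2 libraries, which may be technical. Peaks are described below by the authors' signal value, a height for which no formula is given in the sources used here, and by rank. Rank 1 is the highest signal within a list, and only ranks were set side by side across lists.

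EP300 is a histone acetyltransferase that transcription factors bring to enhancers and promoters. Fatty acids reach the heart from circulating triglyceride, are carried into the muscle cell, joined to coenzyme A, passed into mitochondria through the carnitine shuttle and shortened there by the enzymes of beta-oxidation. Around birth the heart of mammals turns from glucose and lactate towards fatty acids as its main fuel. PPAR and estrogen-related receptors (ERR), both nuclear receptors, are well-known activators of these genes, with PGC-1 coactivators.

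The tissue label was checked against marker genes by the same counting rule. Peaks stood at 9 of 10 heart muscle markers, with Myl7 at 0, and at 8 of 8 endothelial markers. Of 8 adipocyte markers 4 had peaks, while Plin1, Cidec, Lep and Ucp1 had 0. A peak stood at 1 of 6 macrophage, 1 of 6 liver and 1 of 6 skeletal muscle markers. Over all protein-coding genes the share was 31.9%, and with lists this short no difference from it was tested. Whole heart mixes cell types, so a peak cannot be given to one of them, and fewer cells of a type cannot be told apart from less binding per cell. The full lists of the pooled reads and of each replicate hold 300000 peaks each. Replicate 2 held fewer peaks with a −log10 q of at least 2, namely 3376 against 11104 in replicate 1. The depth of the libraries is unknown.

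Sequences of 12 member sites are printed here because the results below turn on their place and their letters. They are the strongest site of each member that has peaks, further strong sites of Cd36, Lpl and Acsl1, and 1 weaker Cd36 site shown for its ERR match. Each is the 200 bp around a summit on mm10, plus strand, 5′ to 3′, in lower case, with matches to any of 14 transcription factor motifs in capitals. The exceptions are the Acsl1 start, cut to the 61 bp before the TSS, and the 85 bp between the starts of Hadha and Hadhb. Neither of these stretches holds the summit of its peak. The uptake genes come first. They are the intronic Cd36 peak (chr5:17880925-17881124), the peak at the downstream Cd36 start (chr5:17835860-17836059), a Cd36 intronic peak with an ERR match (chr5:17876743-17876942), the Lpl intronic peak (chr8:68903072-68903271), the peak before the Lpl start (chr8:68878536-68878735) and the upstream Fabp3 peak (chr4:130299372-130299571).
Cd36 intron: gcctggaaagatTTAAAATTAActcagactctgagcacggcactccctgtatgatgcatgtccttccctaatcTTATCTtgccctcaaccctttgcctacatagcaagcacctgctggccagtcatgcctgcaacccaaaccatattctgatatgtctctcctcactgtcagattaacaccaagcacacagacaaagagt

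Cd36 downstream start: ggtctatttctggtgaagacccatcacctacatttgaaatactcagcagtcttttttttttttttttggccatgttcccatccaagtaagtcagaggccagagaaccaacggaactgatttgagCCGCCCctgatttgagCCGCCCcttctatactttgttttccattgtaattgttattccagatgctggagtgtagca

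Cd36 intron with ERR match: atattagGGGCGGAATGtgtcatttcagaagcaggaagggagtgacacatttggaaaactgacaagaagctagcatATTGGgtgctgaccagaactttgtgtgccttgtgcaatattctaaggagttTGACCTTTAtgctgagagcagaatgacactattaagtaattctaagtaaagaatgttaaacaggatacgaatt

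Lpl intron: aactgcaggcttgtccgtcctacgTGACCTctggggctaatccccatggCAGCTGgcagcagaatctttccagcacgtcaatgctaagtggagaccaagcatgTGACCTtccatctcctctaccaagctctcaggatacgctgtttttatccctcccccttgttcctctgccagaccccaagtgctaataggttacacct

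Lpl upstream: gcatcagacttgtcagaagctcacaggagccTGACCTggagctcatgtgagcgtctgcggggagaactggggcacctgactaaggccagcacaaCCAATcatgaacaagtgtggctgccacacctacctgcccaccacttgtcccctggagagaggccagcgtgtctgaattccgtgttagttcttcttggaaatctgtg

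Fabp3 upstream: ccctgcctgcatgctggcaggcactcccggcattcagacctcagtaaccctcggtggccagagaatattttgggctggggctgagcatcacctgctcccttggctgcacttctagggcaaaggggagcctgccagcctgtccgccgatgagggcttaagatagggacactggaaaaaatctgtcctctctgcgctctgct

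The second set holds the enzymes. They are the 61 bp before the internal Acsl1 start (chr8:46490905-46490965), the far upstream Acsl1 peak (chr8:46421623-46421822), the Cpt1a intronic peak (chr19:3325399-3325598), the Cpt1b promoter (chr15:89425950-89426149), the Acadm promoter (chr3:153944840-153945039) and the stretch shared by Hadha and Hadhb (chr5:30155163-30155247).

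Acsl1 internal start: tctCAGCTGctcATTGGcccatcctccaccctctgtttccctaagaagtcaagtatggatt

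Acsl1 upstream: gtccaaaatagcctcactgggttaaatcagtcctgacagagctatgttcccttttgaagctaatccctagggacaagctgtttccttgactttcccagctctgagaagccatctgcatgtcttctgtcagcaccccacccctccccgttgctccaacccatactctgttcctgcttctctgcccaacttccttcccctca

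Cpt1a intron: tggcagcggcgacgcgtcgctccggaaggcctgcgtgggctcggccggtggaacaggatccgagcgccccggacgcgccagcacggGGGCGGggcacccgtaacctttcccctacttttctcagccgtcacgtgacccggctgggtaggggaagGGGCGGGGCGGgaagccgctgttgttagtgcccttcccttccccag

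Cpt1b promoter: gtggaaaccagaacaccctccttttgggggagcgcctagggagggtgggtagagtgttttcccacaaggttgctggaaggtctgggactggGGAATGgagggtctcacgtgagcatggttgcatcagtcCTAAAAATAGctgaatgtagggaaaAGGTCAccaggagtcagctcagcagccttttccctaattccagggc

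Acadm promoter: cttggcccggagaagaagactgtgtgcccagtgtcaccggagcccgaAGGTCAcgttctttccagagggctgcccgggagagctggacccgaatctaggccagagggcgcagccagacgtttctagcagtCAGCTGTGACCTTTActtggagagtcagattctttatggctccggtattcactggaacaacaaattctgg

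Hadha and Hadhb: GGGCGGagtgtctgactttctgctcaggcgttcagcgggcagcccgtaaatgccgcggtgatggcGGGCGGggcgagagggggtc

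Cd36 encodes the membrane protein that brings long-chain fatty acids into muscle and endothelial cells. The gene (ENSMUSG00000002944.15) lies on the minus strand of chromosome 5, chr5:17781690-17888801, and its 6 annotated coding TSSs form 3 groups. It held 9 peaks, a number that 0.701% of all protein-coding genes reach or exceed (153 genes). The strongest, with a signal of 114.4 and rank 231, lay in an intron 7.72 kb downstream of the most upstream start group (chr5:17880929-17881089). It ranked 315 in replicate 1 and 166 in replicate 2, so it was high in both. Its window holds a MEF2 and a GATA match.

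The most downstream start group of Cd36 carried nearly the same signal as the intron. A peak 243 bp upstream of it (chr5:17835712-17836207) had a signal of 112.9 and rank 246, with ranks of 187 and 640 in replicates 1 and 2. A second call 457 bp upstream had a signal of 22.1 and overlaps the first. In replicate 2 a single call lay near both summits. At the most upstream start group the optimal list has no peak, while the conservative list has 1 with a signal of 24.7 there. At the middle group the strongest pooled call within 1 kb ranked 117173. The start groups of Cd36 thus ranged from rank 246 to rank 117173 in the pooled list.

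The other 6 peaks of Cd36 lay inside introns or upstream of the gene. An intronic peak 11.9 kb from its TSS had a signal of 47.2 and ranked 3790 and 5505 in the replicates. Its window holds an ERR match on the minus strand, TGACCTTTA. Upstream of the gene, 4 peaks lay 10.4, 16.1, 30.4 and 35.5 kb from the start, with signals of 50.1, 37.9, 53.8 and 68.2. The farthest was the strongest of the 4 and ranked 1043 and 1309. The peak 10.4 kb upstream ranked 23591 in replicate 1 and 10078 in replicate 2, with a −log10 q of 1.20 and 1.17. The replicates were farther apart at the peak 16.1 kb upstream, which ranked 3191 in replicate 1 and 36325 in replicate 2. They were also apart at an intronic peak 5.55 kb from its TSS, which ranked 6919 and 101982.

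Lpl encodes lipoprotein lipase, which releases fatty acids from triglyceride at the capillary wall. The gene (ENSMUSG00000015568.16) lies on the plus strand, chr8:68880491-68907448, and also held 9 peaks. The 2 calls at its start were not its strongest. The highest signal, 96.0 at rank 441, lay in an intron 22.7 kb downstream of the TSS (chr8:68902924-68903419) and ranked 223 in replicate 1 and 1496 in replicate 2. A peak 1.86 kb upstream of the TSS (chr8:68878388-68878883) had a signal of 88.0 and ranked 713 and 359. Both windows hold AGGTCA, the core letters of nuclear receptor sites, written TGACCT on the printed strand. The intronic window holds it at 2 places.

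At the Lpl start itself the signal was 40.2 for a summit 27 bp upstream and 11.5 for a call 175 bp downstream. The first ranked 12460 in replicate 1 and 4277 in replicate 2, so it was among the leading 17372 peaks of both. A second intronic peak 2.41 kb downstream had a signal of 40.7. The remaining 4 Lpl peaks lay 73.7, 81.7, 95.4 and 96.9 kb downstream of the TSS, beyond the end of the gene, with signals of 53.6, 35.9, 49.2 and 31.7. All 4 ranked within the leading 17372 of both replicates. They lie nearer to the start of a pseudogene, Gm45780, or of a long non-coding RNA, Gm33103, than to Lpl, and with TSSs of any gene type Lpl kept 5 peaks. With a limit of 50 kb it held 5 and with 20 kb it held 4. The last peak inside the 100 kb limit was the one at 96.9 kb, and the only peak of a member just outside it lay 103371 bp from the Lpl TSS, with a signal of 46.4.

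Fabp3 encodes the fatty acid binding protein of heart and skeletal muscle, which carries fatty acids through the cytosol. The gene (ENSMUSG00000028773.8, plus strand, chr4:130308595-130315463) held 3 peaks. The strongest (chr4:130299224-130299719) lay 9.12 kb upstream, with a signal of 101.0 at rank 360, and ranked 322 and 434 in the replicates. None of the 14 motifs matched in its window. The 2 others, 1.65 kb and 632 bp upstream, had signals of 22.1 and 29.2. The first of these had no summit in the replicate 2 list within 0.5 of the usual call width, the distance taken here as the same site. The peak at the Fabp3 start, 48 bp from its TSS with a signal of 38.9, was counted for Gm10570, whose TSS on the other strand is 79 bp away and 31 bp from that summit.

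**Figure D1:**
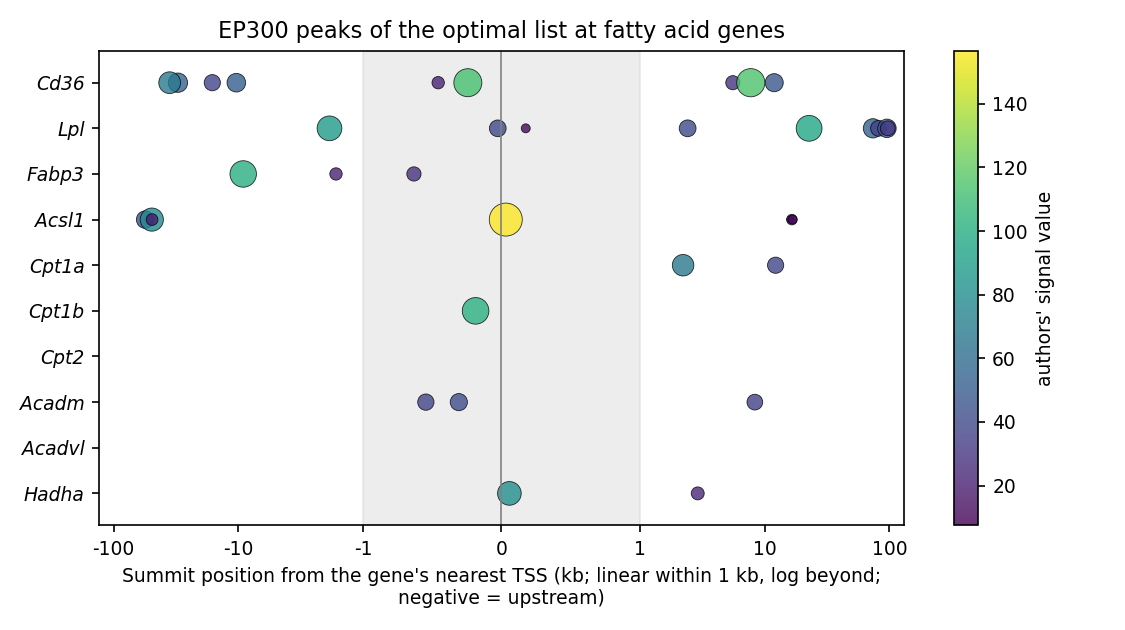
Position of the 36 optimal peaks relative to their nearest TSS (horizontal axis, kb, linear within 1 kb and logarithmic beyond, upstream negative) for each member (rows), with colour and size giving the authors' signal value. Cd36 and Lpl have 9 peaks each, and their strongest peaks lie 7.72 and 22.7 kb downstream of a TSS.

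The plot of positions shows that distance from the start and signal did not go together in one way. The strongest peaks of Acsl1, Cpt1b, Acadm and Hadha lay within 1 kb of a start, while those of Lpl, Fabp3 and Cpt1a lay farther away. The strongest Cd36 peak was intronic, with the start peak close behind it in signal.

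Acsl1 encodes the main long-chain acyl-CoA synthetase of heart muscle, which joins fatty acids to coenzyme A. The gene (ENSMUSG00000018796.13, plus strand, chr8:46471037-46536051) has 7 annotated coding TSSs in 4 groups. The peak of highest signal at any member, 156.7 at rank 76, stood 31 bp downstream of an internal start (chr8:46490878-46491117). It ranked 78 in replicate 1 and 67 in replicate 2. At the first start group, from position 46471037 to 46471177, the optimal list has no peak, and the strongest pooled call within 1 kb ranked 34212. No list had a call within 1 kb of the last 2 groups. The call at Acsl1 was therefore at 1 of its 4 start groups.

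Acsl1 held 7 peaks in all. Upstream of the gene, peaks lay 55.8, 49.3 and 49.1 kb away with signals of 43.8, 77.2 and 19.7, and the last 2 overlap. The peak at 49.3 kb (chr8:46421475-46421970) ranked 1504 and 655 in the replicates. The other 3 lay in an intron 16.1, 16.5 and 16.7 kb downstream of a start, with signals of 7.48, 16.0 and 11.3, each overlapping its neighbour. They ranked 241471, 28654 and 66071 in the pooled list, so the optimal list holds calls here that the pooled signal alone would not place among its leading 17372. Acsl1 had 3 peaks with a −log10 q of at least 2, 4 among the leading pooled peaks and 3 with replicate 1 alone. The 3 upstream peaks lie nearer to the start of a long non-coding RNA, Gm45253, or of a pseudogene, Gm45245, than to Acsl1. With TSSs of any gene type Acsl1 kept 4 peaks, and with a limit of 20 kb it held 4.

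**Figure D2:**
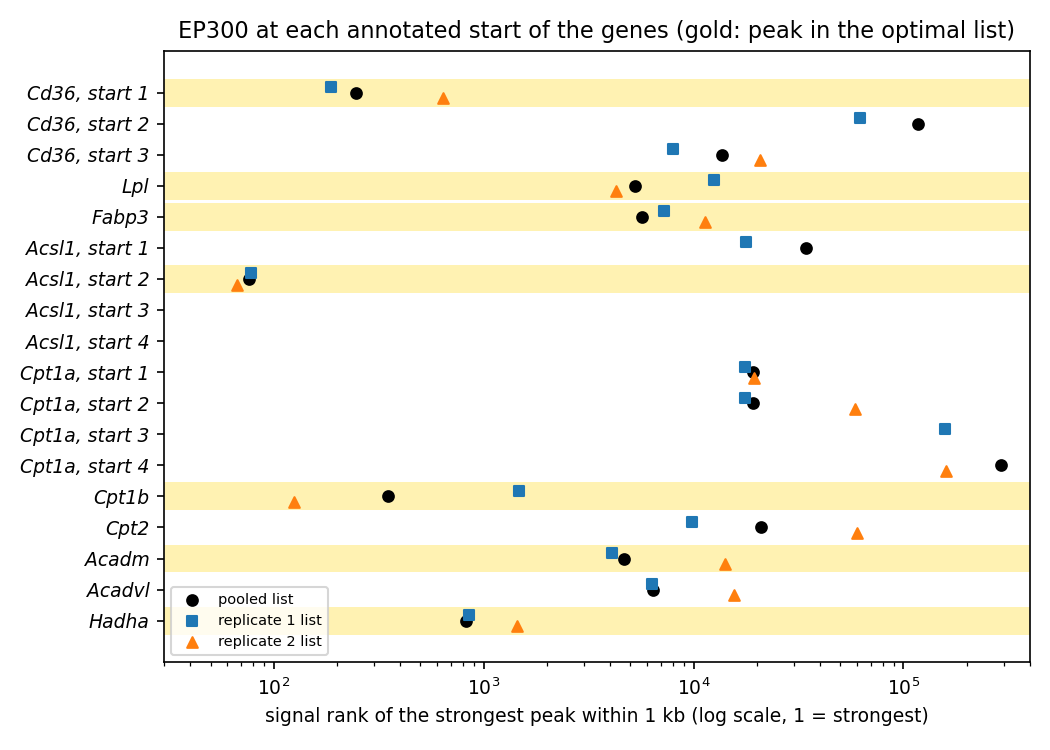
Rank of the strongest call within 1 kb of each TSS group of the members (horizontal axis, log scale, rank 1 being the highest signal) in the pooled and replicate lists, with groups numbered by rising coordinate and gold bands marking groups with an optimal peak. The internal Acsl1 start stands at pooled rank 76 and the first Acsl1 start at 34212, and the most downstream Cd36 start at 246.

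The carnitine shuttle takes acyl groups across the mitochondrial membranes. Cpt1a and Cpt1b encode the carnitine palmitoyltransferases of the outer membrane, the first prominent in liver and in fetal heart and the second in adult heart and muscle, and Cpt2 encodes the enzyme of the inner membrane. Cpt1b (ENSMUSG00000078937.8, minus strand, chr15:89416405-89425863) held 1 peak, 187 bp upstream of its TSS (chr15:89425802-89426297). Its signal was 102.0 at rank 352, with ranks of 1467 in replicate 1 and 125 in replicate 2. The window holds MEF2, TEAD and AGGTCA matches and lies inside the annotated span of Gm44502. With replicate 1 alone Cpt1b had 2 peaks.

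Cpt1a (ENSMUSG00000024900.5, plus strand, chr19:3322334-3385733) held 2 peaks, both intronic. The stronger one lay 2.21 kb downstream of a TSS (chr19:3325251-3325746), with a signal of 66.6 at rank 1490 and ranks of 3744 and 926. Its window holds 23 CpG dinucleotides and is 71% G and C, the highest share of the 36 member windows, and its KLF and SP matches are GGGCGG. The other peak, 12.2 kb downstream, had a signal of 37.9 and ranked 9099 and 24877. With replicate 2 alone Cpt1a had 1 peak. At the first Cpt1a start the strongest pooled call within 1 kb ranked 19206 and no optimal peak was present.

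Cpt2 (ENSMUSG00000028607.16, minus strand, chr4:107903981-107923610) had no optimal peak. The strongest pooled call within 1 kb of its start ranked 20946, below the leading 17372. Its summit was at position 107923205. In replicate 1 the strongest call within 1 kb, with its summit at 107923295, ranked 9797 with a −log10 q of 2.12. In replicate 2 the strongest call within 1 kb ranked 59865. Its summit, at 107923921, was too far from the pooled and replicate 1 summits to count as the same site. With replicate 1 alone Cpt2 thus had 1 peak. The 4 optimal peaks within 100 kb of Cpt2 were nearer to Podn (2) and Slc1a7 (2).

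Beta-oxidation starts with acyl-CoA dehydrogenases, of which Acadvl acts on very long and Acadm on medium chains. Acadm (ENSMUSG00000062908.12, minus strand, chr3:153922357-153944632) held 3 peaks. A pair of overlapping calls 308 and 546 bp upstream (chr3:153944692-153945187 and chr3:153944930-153945425) had signals of 42.4 and 38.2. The first ranked 4099 in replicate 1 and 14853 in replicate 2. Its window holds an ERR match on the minus strand, TGACCTTTA, directly after an E-box, and a separate AGGTCA. The peak 8.33 kb inside the gene had a signal of 35.7 and ranked 6853 and 28240, so all 3 Acadm peaks stood lower in replicate 2.

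Acadvl (ENSMUSG00000018574.14, minus strand, chr11:70010183-70015411) had no optimal peak but was not without a call. The conservative list held 1 peak 457 bp downstream of its start (chr11:70014682-70015177) with a signal of 36.7 and rank 6127. The same site ranked 6440 in the pooled list, 6315 in replicate 1 and 15581 in replicate 2. Acadvl therefore had 1 peak in each of the other lists and 0 in the optimal one. The 12 optimal peaks within 100 kb went to 7 other genes, among them Slc2a4 and Gabarap with 3 each.

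Hadha encodes the alpha subunit of the mitochondrial trifunctional protein, which carries out the later steps of beta-oxidation on long chains, and Hadhb, its beta subunit, starts 86 bp away on the other strand. Hadha (ENSMUSG00000025745.12, minus strand, chr5:30118304-30155162) held 2 peaks. The one at the shared start, 57 bp inside Hadha (chr5:30154857-30155352), had a signal of 80.6 at rank 824 and ranked 853 and 1446 in the replicates. It cannot be told apart as a peak of Hadha or of Hadhb. The stretch between the starts holds GGGCGG at 2 places, of which only the first lies in the 200 bp summit window. An intronic peak 2.90 kb downstream had a signal of 24.3, and Hadha had 1 peak with a −log10 q of at least 2.

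**Figure D3:**
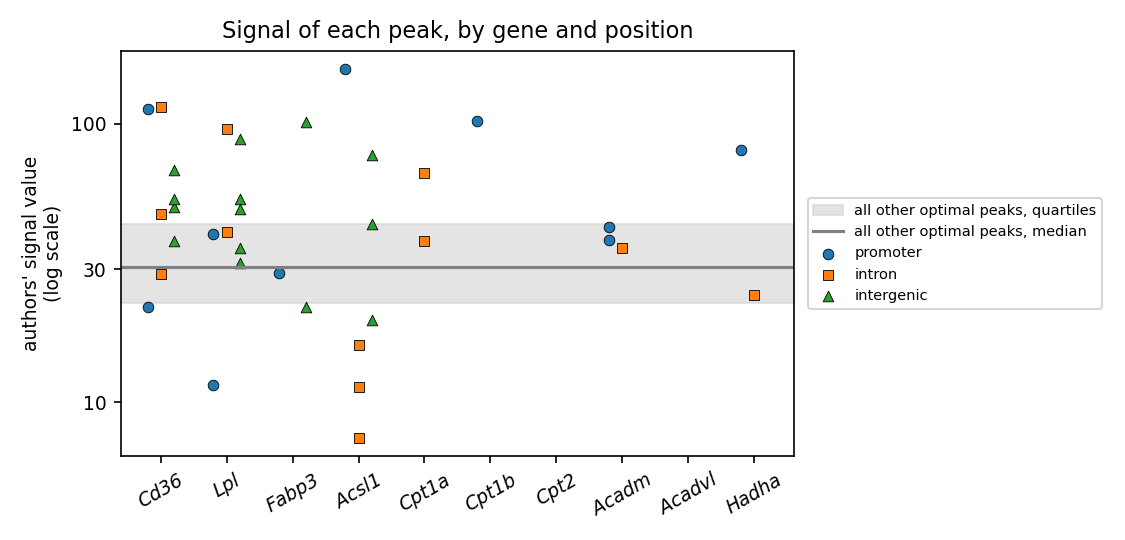
Signal value (vertical axis, log scale, as deposited) of each optimal peak of the members by gene, with symbols for promoter, intronic and intergenic peaks, over a band for the quartiles of all other optimal peaks. The members' quartiles are 29.1 and 70.5 and those of all other peaks 22.7 and 43.5.

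The plot of signal by gene shows peaks at both ends of the range at Acsl1, from 7.48 to 156.7, and a narrower range at Acadm, from 35.7 to 42.4. The median signal of the 36 peaks was 41.6, against 30.6 over all optimal peaks, and the median rank 4825.5 against 8684. Of the 36 member peaks 15 stood among the first 3474 of the list, which hold 3470 of all 17339 peaks. These medians describe the members and were not tested. A −log10 q of at least 2 was reached by 28 of 36 member peaks (77.8%; exact 95% interval 60.8 to 89.9%), against 57.7% of all optimal peaks. The highest IDR score, 1000, was given to 22 of 36 (61.1%; 43.5 to 76.9%), against 37.4%. The conservative list held the same site for 30 of the 36 (83.3%; 67.2 to 93.6%), against 71.7%. Intervals cover counting error only, and overlapping calls at 1 gene are not independent. The members were chosen with earlier results of these data known, so here and below the intervals only describe these 36 calls.

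By position, 10 of the 36 peaks lay within 1 kb of a TSS (27.8%; 14.2 to 45.2%). The share was 33.5% over all optimal peaks and 37.3% over those assigned to a gene within 100 kb. The interval spans both. Of the other 26, 12 were intronic and 14 intergenic. The median distance to the TSS was 8725 bp, against 8080 bp over all. The 10 windows near member starts came from 7 genes, with overlapping calls at Cd36, Lpl and Acadm. Their medians were 4 CpG dinucleotides and 55% G and C, against 15 and 62% over all promoter peaks. Away from starts the medians were 2 and 45.2% against 3 and 50.5%. Joining summits closer than 1 call width left 30 member sites.

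**Figure D4:**
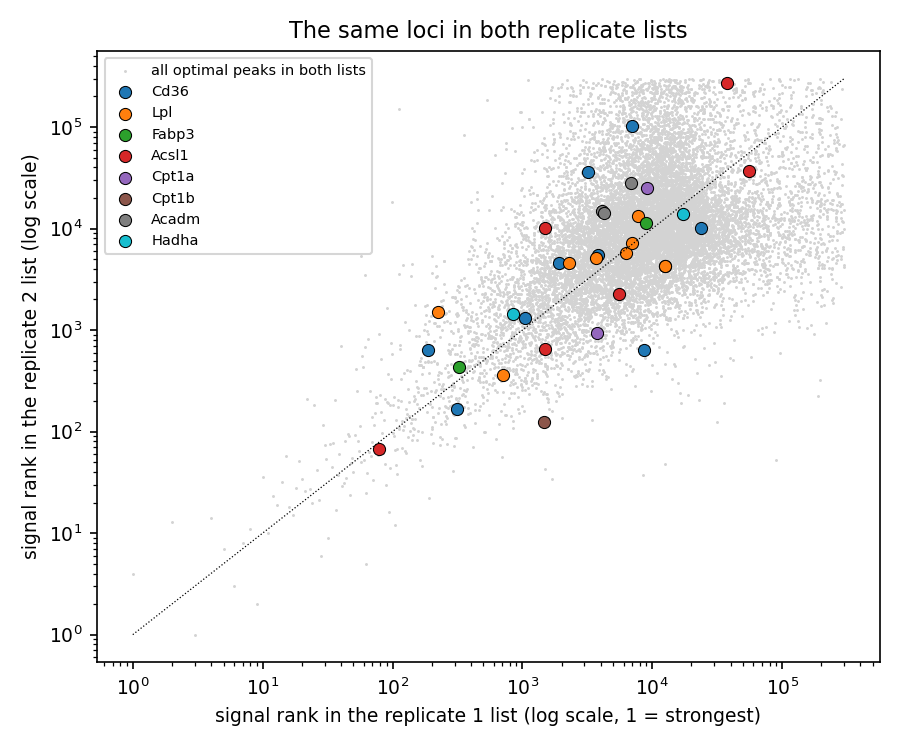
Rank of each member peak in replicate 1 (horizontal axis) and replicate 2 (vertical axis), both on log scales with rank 1 the highest signal, coloured by gene, over all optimal peaks in grey. The Acsl1 internal start stands at ranks 78 and 67, and the Cd36 intronic peak at ranks 6919 and 101982 lies far from the dotted diagonal of equal rank.

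Both replicates held the leading sites. All 36 member peaks stood in the full replicate 1 list and 34 in that of replicate 2, so 34 of 36 were in both (94.4%; 81.3 to 99.3%), against 86.9% of all optimal peaks. Lists of 300000 calls are permissive, and among the leading 17372 of both the count was 27 of 36 (75%; 57.8 to 87.9%), against 48.6%. The 2 peaks with no replicate 2 summit were the Fabp3 peak 1.65 kb upstream and the Acsl1 intronic peak of signal 7.48. The median rank was 4160.5 in replicate 1 and 4828.5 in replicate 2, against 9187 and 9027 over all optimal peaks. Summits moved by a median of 12 bp in replicate 1 and 32.5 bp in replicate 2, against 15 and 25 bp over all optimal peaks, so less than all in the first and more in the second. Among the first 1000 peaks stood 7 of 36 member peaks in replicate 1 and 9 in replicate 2, against 1031 and 1047 of all 17339 optimal peaks, some of which share a call. Overlapping member calls could also share a replicate call, as the 2 at the Lpl start did. With summits required to lie within 100 bp, 29 of 36 member peaks were in both full lists.

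Counts per gene depended on the list for some members. In the order optimal, conservative, leading pooled, replicate 1 and replicate 2, Cd36 had 9, 10, 12, 11 and 12 peaks and Lpl 9, 10, 9, 9 and 11. Acsl1 had 7, 5, 4, 3 and 5 in the same order, and Cpt1a 2, 2, 2, 3 and 1. Fabp3 had 2 or 3, Acadm 2 or 3, Hadha 2 or 3 and Cpt1b 1 or 2, while Cpt2 and Acadvl had 0 or 1. Acsl1, Cpt1a, Cpt1b, Cpt2 and Acadvl thus moved by over 1.5 times, or to or from 0, in at least 1 list. Of the 10 genes, 8 had a peak in the optimal list, 9 in the conservative list, 10 among the leading peaks of replicate 1 and 9 among those of replicate 2. The genes that entered were Acadvl in each and Cpt2 in replicate 1. The share of all protein-coding genes with a peak ranged from 29.3% to 35.0% over these lists.

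The 14 motifs were searched on both strands of the 200 bp windows. AGGTCA was in 11 of 36 member windows (30.6%; 16.3 to 48.1%) at 7 genes, against 15.1% of all optimal windows. The interval of AGGTCA lay just above that share, but overlapping calls count separately in it. AGGTCA was 1 of 14 motifs searched, with no correction for their number. Away from starts it was in 7 of 26 member windows (26.9%), against 17.9% of all such windows. With 1 window per merged site the share was 9 of 30 (30%; 14.7 to 49.4%), and the interval spanned 15.1%. In 100 bp windows it was 6 of 36 (16.7%; 6.37 to 32.8%), and the interval spanned the 7.46% of all summits. The ERR motif, TNAAGGTCA, contains AGGTCA and was in 2 (5.56%), at Cd36 and Acadm, against 1.41%. MEF2 was in 5 (13.9%) against 5.48%, AGATAA of GATA factors in 7 (19.4%) against 13.1%, and the E-box CAGCTG in 8 (22.2%) against 17.8%. CCAAT of NFY was in 10 (27.8%) against 21.4%, and AP-1, TGANTCA, in 4 (11.1%) against 7.41%. GGGCGG of KLF and SP factors was in 4 (11.1%) against 20.95%, and away from starts in 7.69% against 8.82%. GGAATG of TEAD was in 4 (11.1%) against 14.9%. ACAGGAAG, an ETS motif, was in 2 (5.56%) against 5.42%, and the CArG box in 1 (2.78%) against 1.44%. For each motif listed after AGGTCA the exact interval spanned the share of all optimal windows. For MEF2 it was 4.67 to 29.5%, and for KLF and SP 3.11 to 26.1%.

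Matches for 3 motifs were at 0 of 36 windows, namely DR1, the PPAR site, which contains AGGTCA at 2 places, the glucocorticoid receptor site and CCGGAAGT of ETS factors. The exact upper limit for 0 of 36 is 9.74%, and over all optimal windows DR1 in this strict spelling was at 0.0634%. A match is a description of letters, and no match says only that these letters are not in the window.

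**Figure D5:**
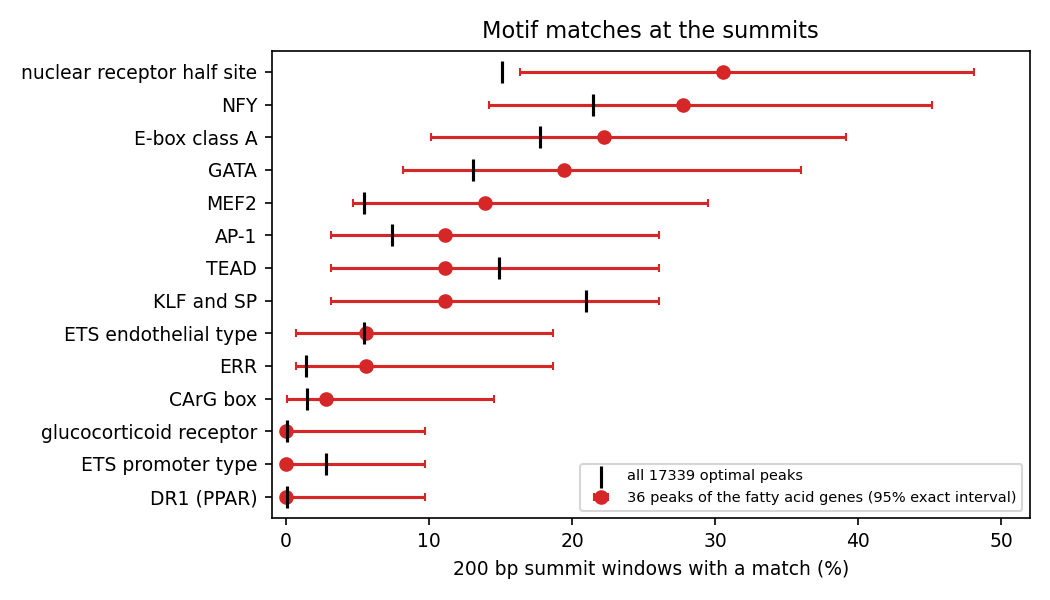
Share of 200 bp summit windows (horizontal axis, percent) with a match to each motif, for the 36 member windows with exact 95% intervals and for all 17339 optimal windows. AGGTCA stands at 30.6% of member windows and 15.1% of all, and KLF and SP at 11.1% and 20.95%. Every interval except that of AGGTCA spans the share of all windows.

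Other genes of the same pathway were counted by the same rule in lists of 60 genes. Of these 31 (51.7%) had a peak, against 31.9% of all protein-coding genes, with 59 peaks of median signal 31.8. Among 10 uptake genes 5 had peaks, led by Angptl4, an inhibitor of lipoprotein lipase, with a signal of 149.7 at rank 88, and Gpihbp1, which anchors lipoprotein lipase to the capillary wall, with 104.8. Of 7 activation genes 3 had peaks, and of 7 carnitine genes 4, led by Mlycd, which degrades the CPT1 inhibitor malonyl-CoA, at 139.5. Of 15 beta-oxidation genes 8 had peaks, led by Acadl at 118.7. Of 10 lipid droplet genes 7 had peaks, of 4 ketone body genes 2 and of 7 peroxisomal genes 2. The shares by list ran from 28.6% (peroxisomal) to 70% (lipid droplet), and none was tested against that of all genes. Glucose handling, taken for comparison, had peaks at 14 of 16 genes, with 36 peaks of median signal 33.0. Of these 55.6% lay within 1 kb of a TSS, against 47.5% at the other 60 pathway genes and 27.8% at the members. Over all peaks assigned to a gene the share was 37.3%.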

How the data were processed

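EP300 ChIP-seq of newborn mouse heart was analysed from 5 deposited peak lists on mm10. Replicate 1 was called against 2 control files and replicate 2 against 1, and 1 list comes from pooled reads, per the file headers. The optimal and conservative lists were selected by irreproducible discovery rate (IDR). Which caller, aligner and IDR threshold were used is not given in the sources used here. The deposited signal value, the authors' score (scaled IDR, at most 1000) and the deposited −log10 q were used as given. The peak start and summit offset, which the authors deposited as positions, gave each summit. No read counts were used, so depth is unknown.

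Summits were assigned to the nearest of 54361 TSSs of 21829 protein-coding genes (GENCODE M21, GRCm38) within 100 kb. Summits within 0.5 call widths were taken as the same site. "Leading" peaks are the first 17372 of a list by signal. Promoter means within 1 kb of a TSS. Sequences were read from GRCm38, which is the mm10 assembly. Gene assignment was tested on simulated data. All 10 members were named whatever their values, with the leading genes of each pathway list, and neighbours that take peaks near a member. Members and lists were chosen with earlier results of these data known. Alternatives were other distance limits, lists, TSS sets, motif windows and each replicate alone. 2 further alternatives, the strongest replicate summit and shared promoters counted for the member, were chosen after seeing the data. Shares have exact Clopper-Pearson 95% intervals. Intervals came from SciPy 1.17.1, tables from pandas 2.3.3 and numpy 2.4.6, and figures from matplotlib 3.10.9, under Python 3.11.15.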

Additional observations from a re-analysis of the deposited data

How the results depend on the processing

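No paired analysis was possible because both libraries belong to 1 group. The number of member peaks was 26 with a limit of 20 kb, 28 with a −log10 q of at least 2, 29 with TSSs of any gene type, 32 within gene bodies and 10 kb around them, and 38 with either replicate alone. Of 66 alternatives for the main counts and shares, 7 were labelled as moved, all of them motif shares. The criteria were unlike. Motif shares were judged by their exact interval, and counts by a change of over 1.5 times, or to or from 0. Over the whole peak interval TEAD matched in 27.8% of member peaks (28.7% of all optimal peaks), AGGTCA in 50% (30.9%) and CCAAT in 52.8% (44.5%). In 100 bp windows CCAAT matched in 13.9% (11.3%), and AP-1 and ACAGGAAG each in 0%. Over merged sites the CArG box matched in 0%. Counting start peaks shared with a neighbour for the member gave 37 peaks, and taking the strongest replicate summit put 28 peaks among the leading calls of both, both chosen after seeing the data. Of 120 alternatives for counts at single genes, 23 moved a count by over 1.5 times, or to or from 0. With 1 group, 2 libraries under 1 donor identifier and unknown depth, neither variation between animals nor a limit of detection can be given.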
